A study of Arabidopsis thaliana with 8 samples.

Results

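UGT76C1 (AT5G05870) and UGT76C2 (AT5G05860) encode the cytokinin N-glucosyltransferases of Arabidopsis thaliana. They were found as the probe sets that the array's annotation gives to these 2 genes, 250750_at for UGT76C1 and 250753_at for UGT76C2, which are 2 of 22746 tested probe sets. The series holds 8 single-colour Affymetrix arrays, 2 in each of 4 groups, of total RNA from the shoots of 14-day-old seedlings, the roots having been cut off after treatment per the labels. Wild-type plants and arr1,10,12 mutant plants, which lack the type-B response regulators ARR1, ARR10 and ARR12, were kept for 1 h in liquid MS medium with DMSO or with 10 µM of benzyladenine (BA), a cytokinin of synthetic origin for which DMSO is the solvent. All plants were grown under continuous white light on medium with sucrose. The labels do not say how the mutant alleles were made, nor whether the 2 samples of a group came from separate cultures, so the spread behind each p-value may be technical. The study asked which genes respond to BA, and whether the response differs without the 3 regulators.

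Cytokinins are adenine derivatives that promote shoot growth and cell division. They are sensed by histidine kinase receptors, and the signal passes by phosphotransfer to type-B response regulators, transcription factors that activate early targets such as the type-A response regulators. Cytokinin levels are lowered by oxidases and by conjugation to sugars. UGT76C1 and UGT76C2 transfer glucose from UDP-glucose to ring nitrogens of the adenine, and BA is among the substrates that both enzymes accept in vitro. N-glucosides are generally regarded as inactive forms.

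The deposited value of a probe set is a linear ratio without a unit of its own. For both genes the median of the 8 values is 1, so a value of 1 is a middle level of that gene, and levels cannot be compared between the genes. The median is within 0.005 of 1 for 70.1% of probe sets. Some genes named below have a lower median, AT5G05900 (0.73), RR16, ARR15, RR18 and RR19 among them, so 1 is not their middle level. Whether such probe sets lie near a detection floor was not tested. Mutant DMSO replicate 1 stood apart from the other arrays. Its median 5′ to 3′ ratio over 6 pairs of control probe sets was 0.352, against 0.993 to 1.11 on the other 7 arrays. These ratios were taken from the deposited relative values. They compare the arrays with each other, and a value near 1 does not show that the RNA was intact. In 17.9% of probe sets the 2 mutant DMSO arrays were over 2-fold apart, against 3.34% or less within the other groups. Each comparison is therefore given with all 8 arrays and with the 7 arrays that remain without it. No probe set was named for ARR1, ARR10 or ARR12, so the mutant labels were not checked at those genes. File names of the 4 wild-type arrays begin alike and unlike those of all mutant arrays, and that of mutant DMSO replicate 1 begins unlike any other, so genotype and file-name prefix cannot be told apart.

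UGT76C2 was highest in wild type with BA and lowest in the mutant. DMSO-treated wild type was at relative values of 1.33 and 1.03, and BA-treated wild type at 3.78 and 2.37. The DMSO-treated mutant was at 0.973 and 0.498, and the BA-treated mutant at 0.544 and 0.896. Both wild-type BA arrays lay above all 6 other arrays, and no mutant array reached either wild-type DMSO array. The share of all probe sets with this full order is not given here, so how common it is cannot be told. For single pairs of groups, 20.6% of all probe sets were higher with BA in wild type without overlap. Those lower in the mutant without overlap made up 13.8% under DMSO and 18.4% under BA. The arithmetic group means fell in the order wild type with BA (3.08 ± 1.00, SD, n = 2), wild type with DMSO (1.18 ± 0.21), mutant with DMSO (0.736 ± 0.336) and mutant with BA (0.720 ± 0.249). The 2 mutant groups overlapped and did not differ beyond their spread. Their order was reversed in the means of log2 values, -0.523 with DMSO and -0.518 with BA.

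UGT76C1 showed no such order. DMSO-treated wild type was at relative values of 1.05 and 0.858, and BA-treated wild type at 0.965 and 0.723. The DMSO-treated mutant was at 1.06 and 1.03, and the BA-treated mutant at 0.697 and 1.09. All 8 values lay between 0.697 and 1.09, and the 4 groups overlapped except that both mutant DMSO arrays lay above both wild-type BA arrays, a pair of groups that no comparison sets side by side. The largest within-group spread of UGT76C1 was in the mutant with BA (SD 0.278, n = 2), where the arrays differed as widely as any 2 of the 8.

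**Figure D1:**
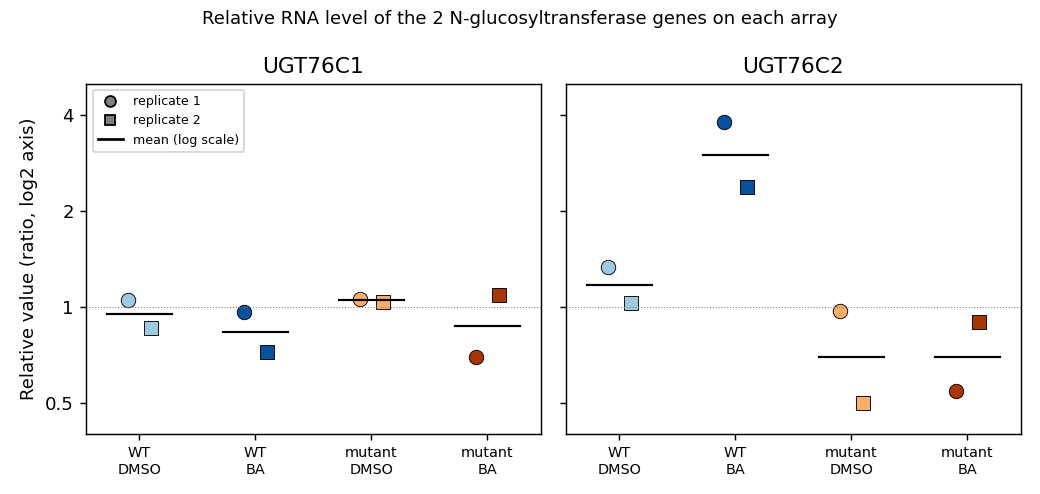
Relative value (ratio, log2 axis) of UGT76C1 and UGT76C2 on the 8 arrays, by group. Circles are replicate 1, squares replicate 2, and lines the group means on the log scale. UGT76C2 stands at 3.78 and 2.37 in wild type with BA and below 1 on all mutant arrays, whereas UGT76C1 stays between 0.697 and 1.09.

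The BA effect in wild type was positive for UGT76C2 and passed the test for neither gene with 8 or 7 arrays. With BA, UGT76C2 stood 2.56-fold above its DMSO level, a log2 change of 1.36 ± 0.42 (SE, 8 arrays) with a 95% interval of 1.28-fold to 5.15-fold. Only 127 of the 22746 probe sets (0.558%) had a larger increase. The gene did not pass the limma test after Benjamini-Hochberg adjustment over all probe sets, with an adjusted p of 0.463 with 8 arrays and 0.0893 with 7. Of all probe sets 0.0220% passed with 8 arrays and 2.27% with 7. In a fit on the 4 wild-type arrays alone, which share 1 file-name prefix, the same change had an SE of 0.25 and an adjusted p of 0.0410 (limma), and 4.22% of all probe sets passed. Both BA arrays lay above both DMSO arrays, as they did in 20.6% of all probe sets. The size rested in part on BA replicate 1: without it the log2 change was 1.02, and without BA replicate 2 it was 1.70.

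UGT76C1 differed by -0.18 ± 0.26 (SE, 8 arrays) with BA in wild type, and its 95% interval reached from 0.569-fold to 1.36-fold. The limma adjusted p was 0.999 with 8 arrays and 0.822 with 7. The 95% intervals of the 2 genes overlapped with 8 arrays. With 7 arrays that of UGT76C1 ended at 1.34-fold and that of UGT76C2 began at 1.53-fold. On each array the log2 value of UGT76C2 minus that of UGT76C1 was taken, which cancels whatever scales a whole array. This difference was 0.34 and 0.26 on the wild-type DMSO arrays, and 1.97 and 1.71 on the wild-type BA arrays. Its mean was 1.54 higher with BA, and these groups did not overlap. With 2 arrays a group the exact permutation test (two-sided) gave p = 0.333, the smallest it can give.

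In the mutant neither gene passed the test for a BA effect. UGT76C2 differed by 0.0043 ± 0.42 (SE) with 8 arrays, a 95% interval of 0.499-fold to 2.02-fold (limma adjusted p = 0.998). Without mutant DMSO replicate 1 the change was 0.49 ± 0.38, from a single DMSO array at 0.498, and the limma adjusted p was 0.991. With that array kept and replicate 2 left out it was -0.48, so the direction depends on which DMSO array is used. UGT76C1 differed by -0.27 ± 0.26 with 8 arrays and by -0.25 ± 0.31 with 7 (limma adjusted p = 0.760 and 0.999). Of all probe sets 0% passed limma here with 8 arrays, where 1215 had an unadjusted p under 0.05, and 0.0352% passed with 7. The 3 mutant arrays that share a file-name prefix are those of the 7-array fit, so its mutant values are also the values within that prefix.

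The difference between the genotypes in the BA effect was tested directly. For UGT76C2 the log2 effect in the mutant minus that in wild type was -1.35 ± 0.59 with 8 arrays, and -0.87 ± 0.49 with 7. The limma adjusted p was 0.591 and 0.586, and both 95% intervals included 0 (-2.78 to 0.07 and -2.05 to 0.31). With mutant DMSO replicate 2 left out in place of replicate 1, the difference was -1.84 and passed (limma adjusted p = 0.0424), as did 20.8% of all probe sets in that fit. For UGT76C1 the difference was -0.08 ± 0.37 with 8 arrays and -0.06 ± 0.40 with 7. Among all probe sets 0% passed limma with 8 arrays, where 1970 had an unadjusted p under 0.05, and 0.453% passed with 7. A smaller response of UGT76C2 in the mutant was therefore not shown by the fit of all 8 arrays or by that of the 7.

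**Figure D2:**
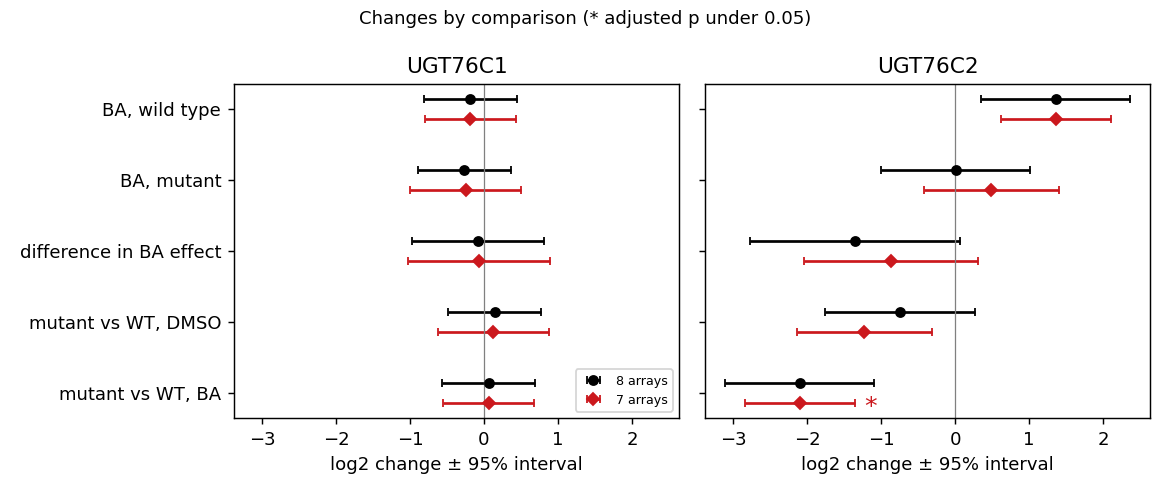
Log2 change with its 95% interval (horizontal axis) of UGT76C1 and UGT76C2 in 5 comparisons, with 8 arrays (black circles) and without mutant DMSO replicate 1 (red diamonds); an asterisk marks an adjusted p under 0.05. UGT76C2 is at 1.36 for BA in wild type and at -2.10 for the mutant under BA, the only comparison marked, while each interval of UGT76C1 includes 0.

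Between the genotypes under BA, UGT76C2 was 4.29-fold lower in the mutant (log2 change -2.10), with an SE of 0.42 with 8 arrays and 0.31 with 7. It did not pass with 8 arrays (limma adjusted p = 0.157) and passed with 7 (adjusted p = 0.0132). Of all probe sets 0.141% passed with 8 arrays and 7.68% with 7. In the 4 BA arrays alone, to which neither mutant DMSO array contributes, it passed as well (limma adjusted p = 0.0413, with 4.07% of all probe sets). Leaving out mutant DMSO replicate 2 in place of replicate 1 gives the same adjusted p by construction, since a lone array adds nothing to the estimate of the spread. Of the 7 arrays, leaving out wild-type BA replicate 1 as well ended the call (change -1.76, limma adjusted p = 0.0603). Only 132 probe sets (0.580%) had a more negative change. Both mutant BA arrays lay below both wild-type BA arrays, which held for 18.4% of all probe sets. The median change of all probe sets was 0.12 here, and with each array centred on its median UGT76C2 was at -2.16. The wild-type BA arrays also enter the BA effect in wild type, so both results rest on the same 2 arrays.

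UGT76C1 did not differ detectably between the genotypes under BA (0.06 ± 0.26, SE, 8 arrays, limma adjusted p = 0.933), with a 95% interval of 0.674-fold to 1.62-fold. Under DMSO it differed by 0.14 ± 0.26 (limma adjusted p = 0.811). The interval of UGT76C2 under BA, 0.116-fold to 0.469-fold, did not overlap that of UGT76C1. The difference of UGT76C2 minus UGT76C1 was -0.36 and -0.28 in the mutant with BA, 2.16 below its wild-type mean.

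Under DMSO, the log2 change of UGT76C2 in the mutant against wild type was -0.75 ± 0.42 (SE) with 8 arrays and -1.23 ± 0.38 with 7. The limma adjusted p was 0.464 and 0.142, and the gene passed in neither fit, where 0.00879% and 4.22% of all probe sets passed. The 2 mutant DMSO arrays were lower than the 2 of wild type, without overlap, as in 13.8% of all probe sets. Over both treatments, the difference of UGT76C2 minus UGT76C1 in the mutant less that in wild type was -1.53. With genotype permuted within treatment, the exact permutation test (two-sided, 36 arrangements) gave p = 0.0556, the smallest it can give. The BA effect on this difference over both genotypes was 0.91, with p = 0.167 by the same exact test with treatment permuted within genotype, and in the mutant alone it was 0.27 (exact permutation p = 1). The mutant DMSO arrays disagreed on UGT76C2 by 1.95-fold, and agreed on UGT76C1 within 1.02-fold.

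The few root markers that could be read were lower on the mutant arrays, without overlap within either treatment. The same held for 13.8% of all probe sets under DMSO and 18.4% under BA. Of the 8 root markers listed, 3 had a named probe set (AT4G26010, EXPA7 and EXPA18), and none was at 0 on any array. Their summed relative values were 4.03 to 4.34 in wild type with DMSO and 3.50 to 5.65 with BA, against 1.17 to 1.86 and 0.985 to 2.67 in the mutant. None of the 3 passed the limma test in any comparison with 8 or 7 arrays. Their part in the lower UGT76C2 of the mutant was not tested. In bulk RNA fewer cells of a type and less RNA per cell cannot be told apart. LHCB4.1, a light-harvesting protein gene and the 1 of 7 leaf and shoot markers with a named probe set, was between 0.851 and 1.14 on all arrays.

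UGT76C2 and UGT76C1 lie next to each other on chromosome 5 in the order of the RefSeq annotation (TAIR10.1). They are followed by AT5G05880, AT5G05890 and AT5G05900, each with 1 named probe set. These 3 were listed as UGT76C4, UGT76C5 and UGT76C3, so they are relatives of the 2 members as well as neighbours. Whether the probes of these neighbouring genes cross-hybridise was not tested. For AT5G05880, DMSO-treated wild type was at 1.01 and 0.934, and BA-treated wild type at 1.47 and 1.48. In the mutant it was at 1.69 and 0.993 with DMSO, and at 0.677 and 0.937 with BA. BA arrays thus lay above DMSO arrays in wild type, as in 20.6% of all probe sets, and below them in the mutant.

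The log2 change of AT5G05880 with BA in wild type was 0.61 ± 0.28 (SE, 8 arrays, limma adjusted p = 0.751). Under BA the mutant against wild type was at -0.89, which did not pass with 8 arrays (limma adjusted p = 0.289) and passed with 7 (adjusted p = 0.0331). With UGT76C2 it makes 2 of the 5 neighbouring genes that passed as lower in that comparison, where 3.56% of all probe sets did. AT5G05890 differed by 0.26 ± 0.16 with BA in wild type and by 0.26 ± 0.16 in the mutant, and AT5G05900 by -0.03 ± 0.22 and 0.06 ± 0.22 (SE, 8 arrays). Neither passed in any comparison. UGT76C1, which lies between UGT76C2 and AT5G05880, passed in no comparison either. Since UGT76C2 was chosen with earlier results of these data known, the count of 2 of 5 is not a test of neighbouring genes.

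**Figure D3:**
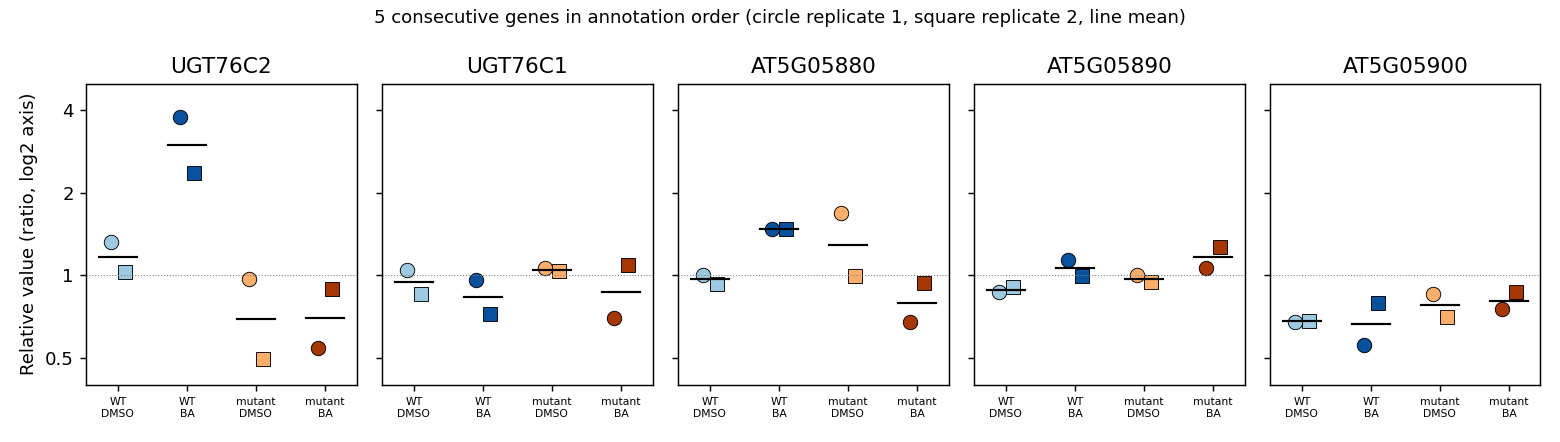
Relative value (ratio, log2 axis) of 5 consecutive genes on chromosome 5, left to right in annotation order, by group; circles are replicate 1, squares replicate 2, and lines group means on the log scale. For UGT76C2, AT5G05880 and AT5G05890 both wild-type BA arrays lie above both wild-type DMSO arrays, as in 20.6% of all probe sets, whereas UGT76C1 and AT5G05900 overlap between these groups.

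Of the other genes of the cytokinin pathway few could be followed. In 10 lists of 72 such genes, 5 had a named probe set, and 7 lists had none, among them the oxidases, the biosynthetic enzymes and the receptors. UGT73C1, an enzyme that forms O-glucosides of zeatin in vitro, was at 0.873 and 1.13 on the wild-type DMSO arrays, and at 1.67 and 3.18 on the wild-type BA arrays. In the mutant it was at 2.57 and 0.435 with DMSO, and at 0.451 and 0.349 with BA. It differed by 1.22 with BA in wild type and did not pass (limma adjusted p = 0.900 with 8 arrays and 0.118 with 7). Under BA the mutant against wild type was at -2.54, which passed with 7 arrays (limma adjusted p = 0.00774) and not with 8 (0.282).

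The 2 type-A response regulators with a probe set rose in wild type with BA, RR16 by 2.19 ± 0.16 and ARR15 by 2.57 ± 0.42 (SE, 7 arrays, limma adjusted p = 0.00583 and 0.0349). Only RR16 passed with 8 arrays (limma adjusted p = 0.0324). RR16 was at 3.93 and 3.85 on the wild-type BA arrays, a tighter pair than UGT76C2. ARR15 was at 6.16 and 2.23 there, with replicate 1 the higher, as for UGT76C2. On the other 6 arrays RR16 and ARR15 lay between 0.507 and 0.926, so 1 is not a middle level for these 2 genes. The type-B regulators RR18 and RR19 did not pass in any comparison.

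**Figure D4:**
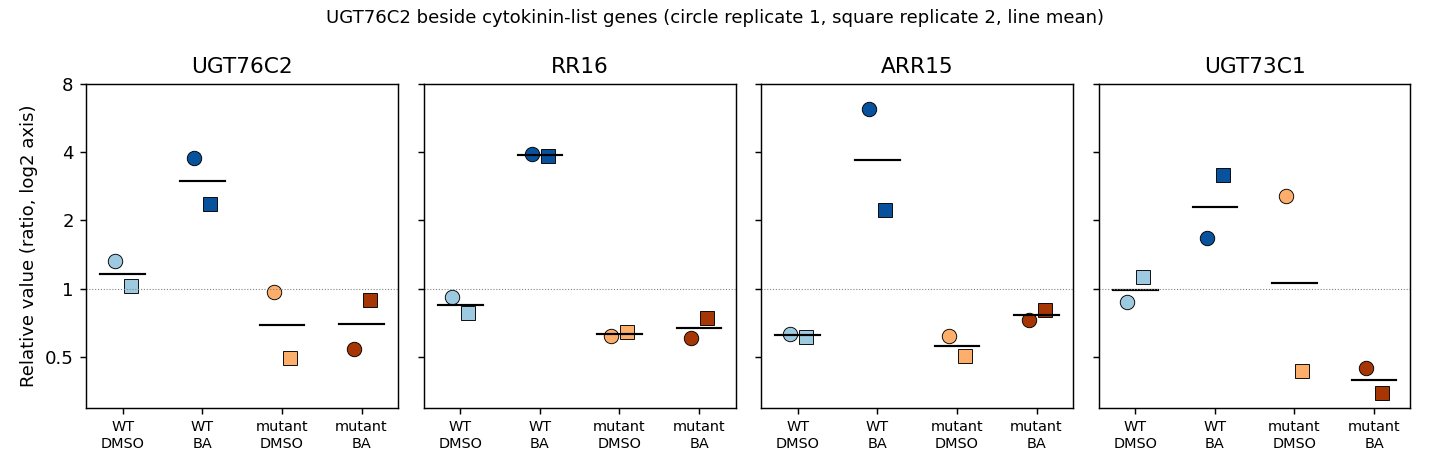
Relative value (ratio, log2 axis) of UGT76C2, the type-A response regulators RR16 and ARR15, and UGT73C1 by group; circles are replicate 1, squares replicate 2, and lines group means on the log scale. The wild-type BA arrays are highest for UGT76C2, RR16 and ARR15, whereas UGT73C1 reaches 2.57 on mutant DMSO replicate 1.

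The genes most like UGT76C2 were ranked by Pearson's r of log2 values over the 8 arrays, among 13512 other probe sets with 1 gene. The values share their arrays and scaling, and r is a description only. The 8 highest were AT5G06110, AT1G36640, AT2G39920, AT2G43610, AT1G66800, AT5G07860, AT4G16680 and AT4G15680, with r from 0.951 to 0.926. Over the 7 arrays AT4G15680 came first (r = 0.987), and the other 7 ranked from 14 to 24. RR16 ranked 22 over 8 arrays (r = 0.914) and 37 over 7 (r = 0.930). ARR15 ranked 50 (r = 0.881) and 137 (r = 0.886). AT2G39920 resembled UGT76C2 in size too, with 5.86 and 2.09 on the wild-type BA arrays and 0.686 to 1.31 elsewhere. AT1G66800 was at 2.79 and 3.22 on those arrays.

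UGT76C1 had an r of -0.06 with UGT76C2 over the 8 arrays. The 8 genes most like UGT76C1 were AT2G24320, PIP, AT5G48460, ATOEP16-4, AT3G31460, TRM34, AT3G10180 and AT2G10400, with r from 0.961 to 0.917. Their changes with BA in wild type were small, from -0.06 to -0.25 on the log2 scale. AT2G24320, AT3G31460, TRM34, AT3G10180 and AT2G10400 lay below 1 on all 8 arrays, AT3G31460 at 0.464 to 0.562. PIP, AT5G48460 and ATOEP16-4 lay on both sides of 1. Over the 7 arrays 4 of these 8 stayed among the first 8, and the other 4 ranked from 9 to 22. AT5G05880 had an r of 0.66 with UGT76C2 and of 0.26 with UGT76C1 over 8 arrays, and of 0.87 and 0.10 over 7.

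UDP-glycosyltransferases glycosylate hormones and secondary metabolites, and 47 genes had a symbol starting with UGT. The neighbours AT5G05880, AT5G05890 and AT5G05900, listed as UGT76C genes, carry no such symbol and are not among the 47. Among these 47 genes UGT76C2 had the third largest increase with BA in wild type. It followed UGT76E12 (2.44 ± 0.39, SE, 8 arrays) and UGT76E11 (1.62 ± 0.77). The 3 with the lowest changes were UGT74D1 (-1.11 ± 0.32), UGT72B3 (-0.93 ± 0.34) and UGT88A1 (-0.70 ± 0.34), and UGT76C1 ranked 35 from the top. The median change over the 47 was 0.09, against -0.04 over all probe sets. With 8 arrays 0 of the 47 passed by limma (7 had an unadjusted p under 0.05, as did 7.24% of all probe sets), and with 7 arrays 5 passed, all higher, where 0.844% of all probe sets passed as higher. These 5 were UGT76E12, UGT76E11, UGT84A4, UGT73B5 and UGT73B4.

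Under BA, 13 of the 47 passed as lower in the mutant with 7 arrays, UGT76C2 among them, and 5 as higher, where 3.56% and 4.12% of all probe sets passed. With 8 arrays 0 of the 47 passed by limma, and 18 had an unadjusted p under 0.05, as did 13.2% of all probe sets. UGT76C2 had the fourth lowest change there, after UGT76E11, UGT76E12 and UGT73C1. The median over the 47 was 0.0014, against 0.12 over all probe sets.

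Mutant DMSO replicate 1 was high for many of the 47 genes. It was more than 2-fold above replicate 2 in 15 of the 47 (31.9%), against 7.76% of all probe sets, and more than 2-fold below it in 1 (2.13%), against 10.2%. UGT73B5, at 5.12 against 0.674, was 1 of these 15. UGT76C2 fell just short of 2-fold, and UGT76C1 did not differ by that measure. For UGT73B5 and UGT73C1 the BA effect in the mutant was -1.48 and -1.41 with 8 arrays, and -0.02 and -0.13 with 7.

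**Figure D5:**
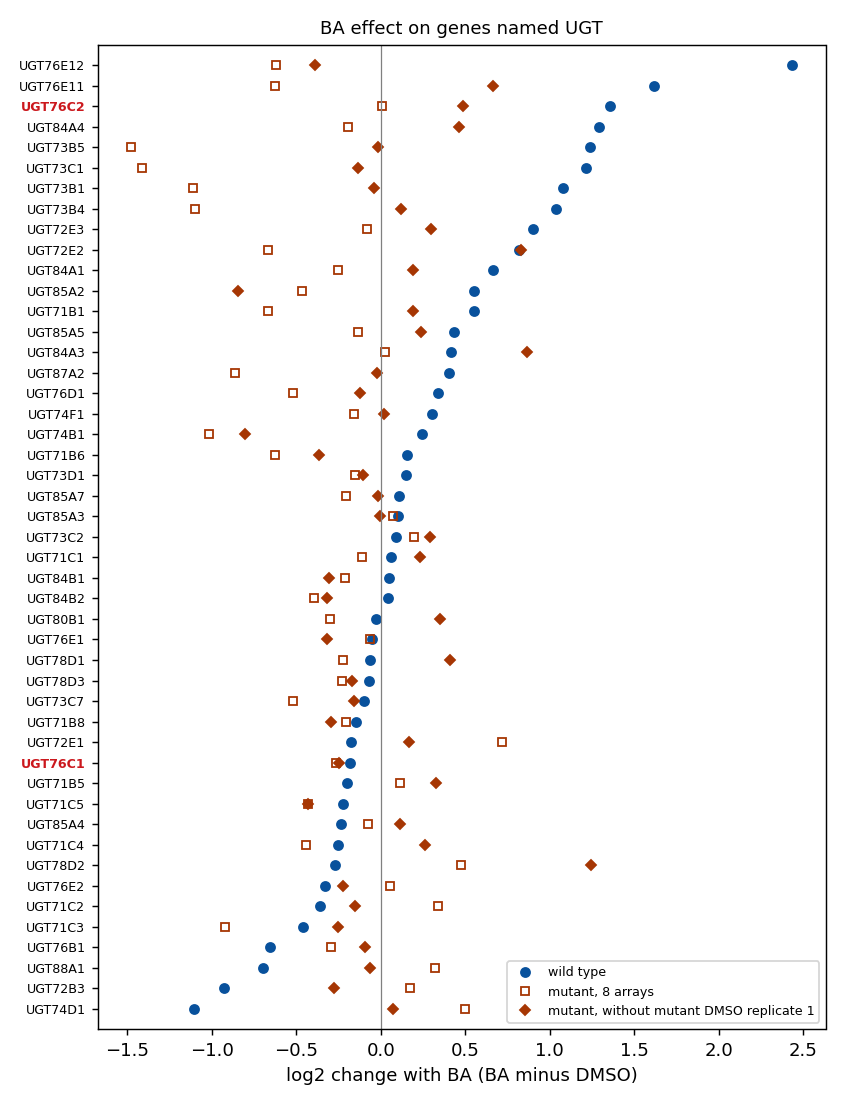
Log2 change with BA (horizontal axis) of the 47 genes named UGT, ordered by the change in wild type (blue circles); open squares are the mutant with 8 arrays and diamonds the mutant without mutant DMSO replicate 1. UGT76C2 (red label) lies near the top at 1.36, and UGT76C1 lies at -0.18, below the median of 0.09 over the 47.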

How the data were processed

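Total RNA was biotin-labelled and hybridised by the standard Affymetrix protocol, per the labels. The deposited table holds a linear ratio for each of 22810 probe sets on 8 arrays. The authors' unit is unlabelled and was taken to be a ratio because the median of 70.1% of probe sets over the arrays is 1, within 0.005. Which program, background correction and scaling were used is not given in the sources used here. No test included the 64 control probe sets. Names came from the array annotation, where 13513 probe sets have 1 gene, 503 have several and 8730 have none. Of the 13513, 13436 were matched by gene ID to RefSeq (TAIR10.1).

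Group means of log2 ratios were compared with limma 3.58.1 (R 4.3.3), lmFit and eBayes, over 22746 probe sets with Benjamini-Hochberg adjustment (threshold 0.05). Residual degrees of freedom were 4 with 8 arrays and 3 with 7. The 7-array fit assumes that the single mutant DMSO array varies like the other groups. The number of arrays limits the precision. The named genes were the 2 members, the genes of the cytokinin lists, the 3 highest and 3 lowest UGT genes and the 8 genes most like each member. The further UGT genes that passed, and those high on mutant DMSO replicate 1, were picked after their values were seen. Members and lists were chosen with earlier results of these data known. Alternatives changed the arrays, offset, scaling, weights, block and tested set. Promoter motifs were not searched.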

Additional observations from a re-analysis of the deposited data

Results flagged for a closer look

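The arrays of AT5G05880, a neighbour of UGT76C1, differed with BA in opposite directions in the 2 genotypes. The BA effect passed the limma test in neither genotype with 8 or 7 arrays. Both wild-type BA arrays lay above both wild-type DMSO arrays, as in 20.6% of all probe sets. Both mutant BA arrays (0.677 and 0.937) lay below both mutant DMSO arrays, of which replicate 2 was at 0.993. The share of all probe sets that do so in the mutant, or in both genotypes, is not given here. The difference in BA effect was -1.31 ± 0.40 (SE, 8 arrays, limma adjusted p = 0.481) and -0.93 ± 0.28 with 7 arrays (adjusted p = 0.275), so it did not pass in either fit. The mutant change was -0.70 with 8 arrays and -0.32 without mutant DMSO replicate 1, where the gene was at 1.69.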

How the results depend on the processing

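UGT76C2 kept the direction of its BA effect in wild type and of its 2 genotype differences under every alternative run. Its higher level with BA in wild type passed in the fit of the 2 groups compared (1.36, limma adjusted p = 0.0410). The fits that leave 1 array in each mutant group give the same estimate of the spread, and so the same value, where replicate 1 of the mutant DMSO group and either mutant BA array are left out. The change was 1.02 to 1.70 when arrays were left out. Its lower level in the mutant under BA passed with array weights (-2.10) and in the 2 groups compared (-2.10). It also passed in the 7-array fits with quantile normalization (-2.12) or median centring (-2.16), both chosen after seeing the data. With 8 arrays it did not pass with quantile normalization (limma adjusted p = 0.0827), median centring (0.157) or offsets of 1 and 32 (0.134 and 0.178). Nor did it pass with 8 arrays when fewer probe sets were tested (limma adjusted p = 0.126 and 0.196). It was -2.46 to -1.74 when arrays were left out, with limma adjusted p from 0.00816 to 0.689. Under DMSO it was -1.42 to -0.26, and the difference in BA effect -1.84 to -0.51. The BA effect of UGT76C2 in the mutant lay near 0 and changed sign. It was -0.036 with median centring, -0.0089 with quantile normalization, and -0.48 to 0.85 when arrays were left out. With offsets of 1 and 32 it was -0.0069 and -0.00067. Such offsets shrink changes of ratios near 1, and the BA effect of UGT76C2 in wild type was 0.89 and 0.080 with them. UGT76C1 under BA turned to -0.013 with quantile normalization and -0.023 with it on 7 arrays. When arrays were left out UGT76C1 ranged from -0.39 to 0.025 for BA in wild type, -0.59 to 0.075 for BA in the mutant, -0.40 to 0.26 for their difference, -0.018 to 0.29 under DMSO and -0.26 to 0.38 under BA. UGT76C1 passed in none of these fits. The difference of UGT76C2 minus UGT76C1 was 1.41 to 1.67 without any 1 wild-type array. Counts of all probe sets that passed moved from 5 to 516 for BA in wild type, 0 to 8 in the mutant, 0 to 103 for the difference, 2 to 961 under DMSO and 32 to 1747 under BA between 8 and 7 arrays.

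The groups share replicate numbers, but same-numbered arrays did not deviate together (correlations of -0.17 to 0.12 between groups), so the numbers were not taken as pairs. With the replicate block the change of UGT76C2 was 1.36 for BA in wild type and -2.10 under BA (limma adjusted p = 0.576 and 0.239), and no call of either gene changed.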
